A study of Arabidopsis thaliana with 15 samples.

Results

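Leaf transcripts of the Arabidopsis thaliana mutant uvr8-1 were compared with those of wildtype in white light, that is, in plants that had received no UV-B treatment. The comparison used 6 of the 15 ATH1 arrays of the series (3 of uvr8-1 and 3 of wildtype), taken by their labels. All plants were of accession Landsberg erecta and had spent 3 weeks in compost at 21 °C under warm white fluorescent tubes that gave continuous light of 25 µmol m-2 s-1. Total RNA came from leaves, and the arrays of a group are described as biological replicates, with nothing further on how the plants were split or pooled. The p-values therefore measure the spread between these samples. A second set of 6 arrays, from uvr8-1 and wildtype plants that were grown alike and then spent 4 h under UV-B at 3 µmol m-2 s-1, was used to see which differences of the line recurred. Another 3 arrays, of hy5-1 plants under the same UV-B, stand beside them for single genes. Each mutant is 1 line, and whether either was crossed back to wildtype is not given in the sources used here.

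UVR8 is the UV-B photoreceptor of plants. Without UV-B the protein rests as a pair of identical subunits, and UV-B splits the pair into single subunits that bind the ubiquitin ligase COP1. The bZIP factor HY5 then builds up and, with its homologue HYH, switches on genes for flavonoids and other UV protection. The comparison addresses what the loss of the receptor changes in light that holds no UV-B treatment.

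All values are log2 expression values made by the authors with RMA, which puts arrays on a common distribution and gives 1 value per probe set (a group of probes for 1 transcript). Differences are uvr8-1 minus wildtype on the log2 scale, with the standard error of the limma fit after ±. Probe sets with an adjusted p under 0.05 over all 22746 tested are termed called. UVR8 and HY5 had no probe set paired with them alone in the annotation used, so the mutated gene itself could not be checked. The medians of the arrays ran from 4.31 to 4.40. An index of transcript evenness, the 3' level minus the 5' level of 3 control transcripts, averaged 2.18 ± 0.16 in uvr8-1 and 1.83 ± 0.04 in wildtype in white light (SD, n = 3 each). The arrays did not overlap (exact permutation p = 0.1, the smallest that 3 against 3 allow). An alternative fit held this index as a covariate. Since the index differs between the genotypes in white light, that fit cannot tell index and genotype apart. Of the markers for tissues a leaf sample could hold, 1 of 8 for mesophyll, 1 of 8 for root, 3 of 6 for guard cells and 1 of 6 for senescence were measured, and none of those for flower, trichome and epidermis, vascular tissue or seed. LHCB4.2, a light-harvesting protein of mesophyll, lay between 10.49 and 11.22 in uvr8-1 and between 10.69 and 11.32 in wildtype. PYK10, a beta-glucosidase best known from roots, lay between 7.91 and 8.31 in uvr8-1 and between 7.78 and 8.33 in wildtype. The guard cell markers averaged 4.46 to 4.99 per array in uvr8-1 and 4.76 to 4.87 in wildtype, and the senescence marker SAG29 lay between 3.40 and 3.81 in uvr8-1 and between 3.58 and 4.16 in wildtype. No marker was called, and in whole leaves fewer cells of a type and less RNA per cell cannot be told apart.

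In white light few transcripts differed detectably between the leaves of uvr8-1 and wildtype. Of 22746 probe sets, 4 were called (0.0176%), 3 of them higher in uvr8-1 (0.0132%) and 1 lower (0.0044%). Under UV-B the same fit called 549 (2.41%), of which 96 were higher (0.422%) and 453 lower (1.99%). The number at an unadjusted p under 0.05 in white light was 371 (1.63%). If nothing differed, a share near 0.05 would be expected, and this fit, which leaves the replicate number out, stayed below it. The low count is thus no measure of how few transcripts differ. With replicate number as a block, the count was 591 in the fit of 15 arrays, with the same 4 calls. It was 1533 in the fit of the 6 white light arrays, with 4 calls of which 2 were the same. Only 12 probe sets (0.0528%) differed by 2-fold or more, and the arrays of the genotypes did not overlap for 5 of those 12 (0.022% of all). A single gene with a probe set of its own was called, AT1G58025, out of 13355 genes (0.00749%).

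The intervals show which sizes of difference the arrays leave out for a single probe set, whereas a call also depends on the adjustment over all of them. The median standard error of a white light difference was 0.149, and the median 95% interval reached 0.321 to either side on the log2 scale. For 21753 probe sets (95.6%) the interval lay wholly within a 2-fold change in either direction, and for 77.5% within a 1.5-fold change. The intervals of 43 probe sets reached a 4-fold change.

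AT1G58025 carried the largest difference in the comparison. Its probe set, 245865_at, read 7.29, 8.70 and 8.70 in uvr8-1, against 3.06, 3.10 and 3.15 in wildtype. The wildtype values lay within the dimmest 40% of probe sets (means under 3.74), so the gene was near background in wildtype and well up the scale on every uvr8-1 array, with replicate 1 the lowest of these. The difference was 5.13 ± 0.28 (adjusted p = 2.55e-06, limma), a 35.0-fold ratio of RMA values that rests on a dim denominator. Under UV-B, on arrays that the white light comparison did not use, AT1G58025 read 9.03, 9.07 and 8.94 in uvr8-1, against 3.04, 3.08 and 3.00 in wildtype. The hy5-1 arrays read 3.42, 3.04 and 3.54, a difference of 0.29 from wildtype under UV-B (adjusted p = 0.556). The transcript was thus high in uvr8-1 in either light. The 16 nearest measured genes on chromosome 1, 8 to either side, differed by between -0.23 and 0.32 in white light, and none of them reached an unadjusted p under 0.05.

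The other 3 called probe sets have no single gene paired with them in the annotation and are given by their IDs. Probe set 254452_at read 4.47, 4.78 and 5.25 in uvr8-1, against 3.12, 2.70 and 2.65 in wildtype, a difference of 2.01 ± 0.20 (adjusted p = 0.00181, limma). Under UV-B it read 4.16, 4.80 and 4.60 in uvr8-1, against 2.65, 2.85 and 2.92 in wildtype. Wildtype was in the dim range in both lights, and no array of uvr8-1 came down to it. In hy5-1 the values were 4.22, 4.38 and 4.16, so both mutants stood above wildtype under UV-B.

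Probe set 263001_at was the one that was lower. It read 5.46, 5.38 and 5.10 in uvr8-1, against 6.67, 6.61 and 6.75 in wildtype, a difference of -1.36 ± 0.14 (adjusted p = 0.00181, limma). The UV-B values were 5.55, 5.31 and 5.20 in uvr8-1, against 6.83, 6.56 and 6.63 in wildtype, close to the white light levels of the same genotype. The hy5-1 arrays, at 7.13, 7.27 and 6.79, lay on the wildtype side. The levels in uvr8-1 were below those of every other group.

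Probe set 248863_at read 7.98, 7.92 and 7.70 in uvr8-1, against 6.94, 6.96 and 6.90 in wildtype, with a small spread in each group. The difference was 0.93 ± 0.10 (adjusted p = 0.00181, limma). Under UV-B it read 8.66, 8.47 and 8.42 in uvr8-1, against 7.39, 7.35 and 7.35 in wildtype, and hy5-1 read 8.28, 8.50 and 8.40. Both genotypes read higher under UV-B than in white light, and the gap between them was there in either light.

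All 4 probe sets were called under UV-B too, in the direction they had in white light, and none had a called difference between the lights. The UV-B differences were 5.97 ± 0.28 for AT1G58025, 1.71 ± 0.20 for 254452_at, -1.32 ± 0.14 for 263001_at and 1.16 ± 0.10 for 248863_at. The 2 lights use separate arrays but share 1 estimate of the spread. Against wildtype under UV-B, 2 of the 4 were called in hy5-1 with the same sign, 254452_at and 248863_at. The comparisons of hy5-1 and of uvr8-1 under UV-B share their wildtype arrays. The share of all probe sets called in hy5-1 was 7.59%, and its evenness index, 2.43 to 3.04, stood above the 1.77 to 1.97 of wildtype under UV-B. With this index as a covariate, the white light calls of 254452_at (adjusted p = 0.0662) and 248863_at (adjusted p = 0.0848) ended, while the differences were 2.0 and 0.885 in that fit. Index and genotype go together on the white light arrays, so their parts in this cannot be told apart. When only the 6 white light arrays entered the fit, which leaves fewer arrays to estimate the spread, none of the 4 was called, and AT1G58025 had an adjusted p of 0.0578.

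**Figure D1:**
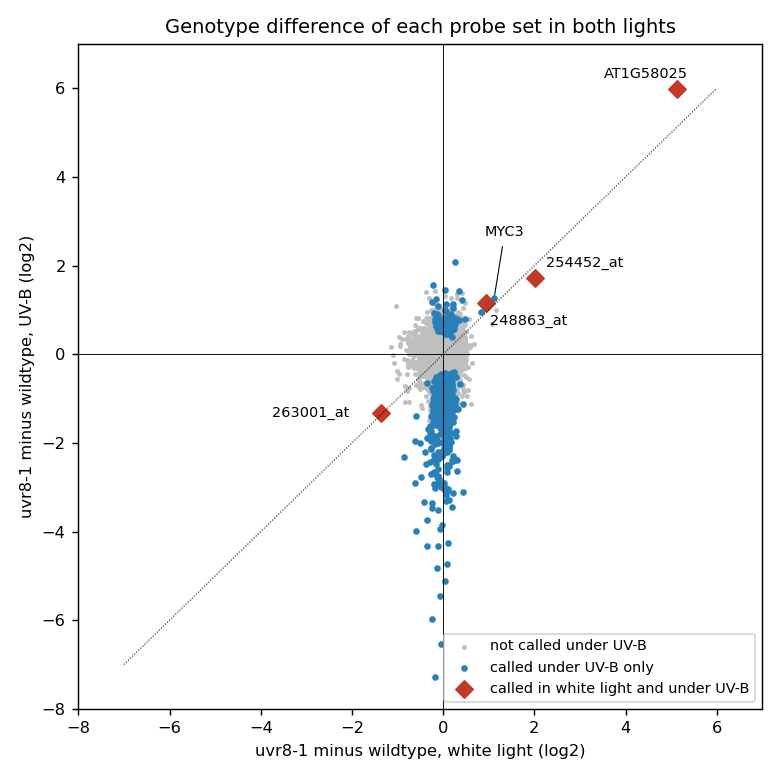
Difference between uvr8-1 and wildtype in white light (horizontal axis, log2) and under UV-B (vertical axis, log2) for each of 22746 probe sets. Red diamonds are the 4 called in both lights, blue points those called under UV-B only, grey points the rest, and the dotted line marks equal differences. The red diamonds lie along the dotted line. Most blue points fall along the vertical axis, with UV-B differences down past -4 and white light differences near 0. Exceptions include MYC3 (1.12 in white light, 1.26 under UV-B) and UBP21 (0.83 and 0.95), near the dotted line. Another is MSRB6, at -0.87 in white light and -2.33 under UV-B.

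The next feature was a short run of neighbouring genes on chromosome 5, for which hy5-1 also had higher means than wildtype under UV-B. MYC3, a bHLH transcription factor of jasmonate signalling, read 6.32, 6.80 and 6.52 in uvr8-1, against 5.27, 5.64 and 5.37 in wildtype. Every uvr8-1 array was above every wildtype array, by 1.12 ± 0.19 on average (95% interval 0.71 to 1.52), but the adjusted p was 0.235 (limma). The UV-B arrays read 6.64, 7.02 and 6.99 in uvr8-1, against 5.49, 5.48 and 5.89 in wildtype, and there the difference of 1.26 ± 0.19 was called (adjusted p = 0.00182). In white light the call rested on the processing: MYC3 was called in 3 of 16 alternative fits, with adjusted p from 0.0264 to 1. With a replicate block in the fit of 15 arrays, its adjusted p was 0.0584 (limma).

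UBP21, a ubiquitin-specific protease, lies 2 genes before MYC3. It read 6.28, 5.94 and 5.74 in uvr8-1, against 5.25, 5.08 and 5.13 in wildtype. The groups did not overlap, and the difference of 0.83 ± 0.15 was not called (adjusted p = 0.478, limma). Under UV-B the values were 6.20, 6.21 and 6.15 in uvr8-1, against 5.48, 5.03 and 5.21 in wildtype, a called difference of 0.95 ± 0.15 (adjusted p = 0.00349). The hy5-1 arrays read 5.90, 6.36 and 6.06, also above wildtype under UV-B (0.87, adjusted p = 0.00644). MYC3 in hy5-1 read 5.93, 5.96 and 6.53, which differed from wildtype by 0.52 (adjusted p = 0.11).

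AT5G46780, 2 genes after MYC3, was added to the account after its values were seen. It read 5.95, 6.40 and 6.52 in uvr8-1, against 4.39, 5.20 and 5.82 in wildtype. The groups did not overlap, yet the wildtype arrays were far apart, and the difference of 1.15 ± 0.49 had an adjusted p of 1. Under UV-B the difference was 0.99 ± 0.49 (adjusted p = 0.466). In hy5-1 AT5G46780 read 9.03, 9.29 and 8.94, against 6.77, 7.88 and 7.96 in wildtype under UV-B. That difference of 1.55 was larger than the one of uvr8-1 and was not called either (adjusted p = 0.0726, limma). AT5G46770, the gene between MYC3 and AT5G46780, was dim on all arrays of either genotype, at 2.61 to 2.65 in uvr8-1 and 2.62 to 2.99 in wildtype in white light. AGD9, between UBP21 and MYC3, had no probe set of its own.

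The 13 other measured genes around MYC3 differed by between -0.24 and 0.27. Of these, 1 had an unadjusted p under 0.05, AT5G46840 (0.27, 95% interval 0.02 to 0.53, adjusted p = 1, limma), and AT5G46730, next before UBP21, differed by -0.14. For the windows centred on MYC3 and AT5G46770, the running median over 5 measured genes along the chromosome came to 0.83 in white light, and to 0.95 under UV-B. The other 12236 windows of the genome lay between -0.35 and 0.33 in white light. Those 2 windows were also the only ones at or past 0.3 in the same direction in both lights. They overlap, and the median of each is the value of UBP21, so they do not count separately. The run is drawn from these same values, with AT5G46780 added after they were seen. The windows therefore describe the run and do not test it. Probe set 248863_at, one of the 4 that were called, has the number just before that of MYC3, 248864_at. Among 7104 pairs of probe sets with consecutive numbers and 1 gene each, 75.5% held genes no more than 10 genes apart, but the position of 248863_at itself is not known from the annotation. Around UVR8, also on chromosome 5, the 16 nearest measured genes differed by between -0.19 and 0.19.

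**Figure D2:**
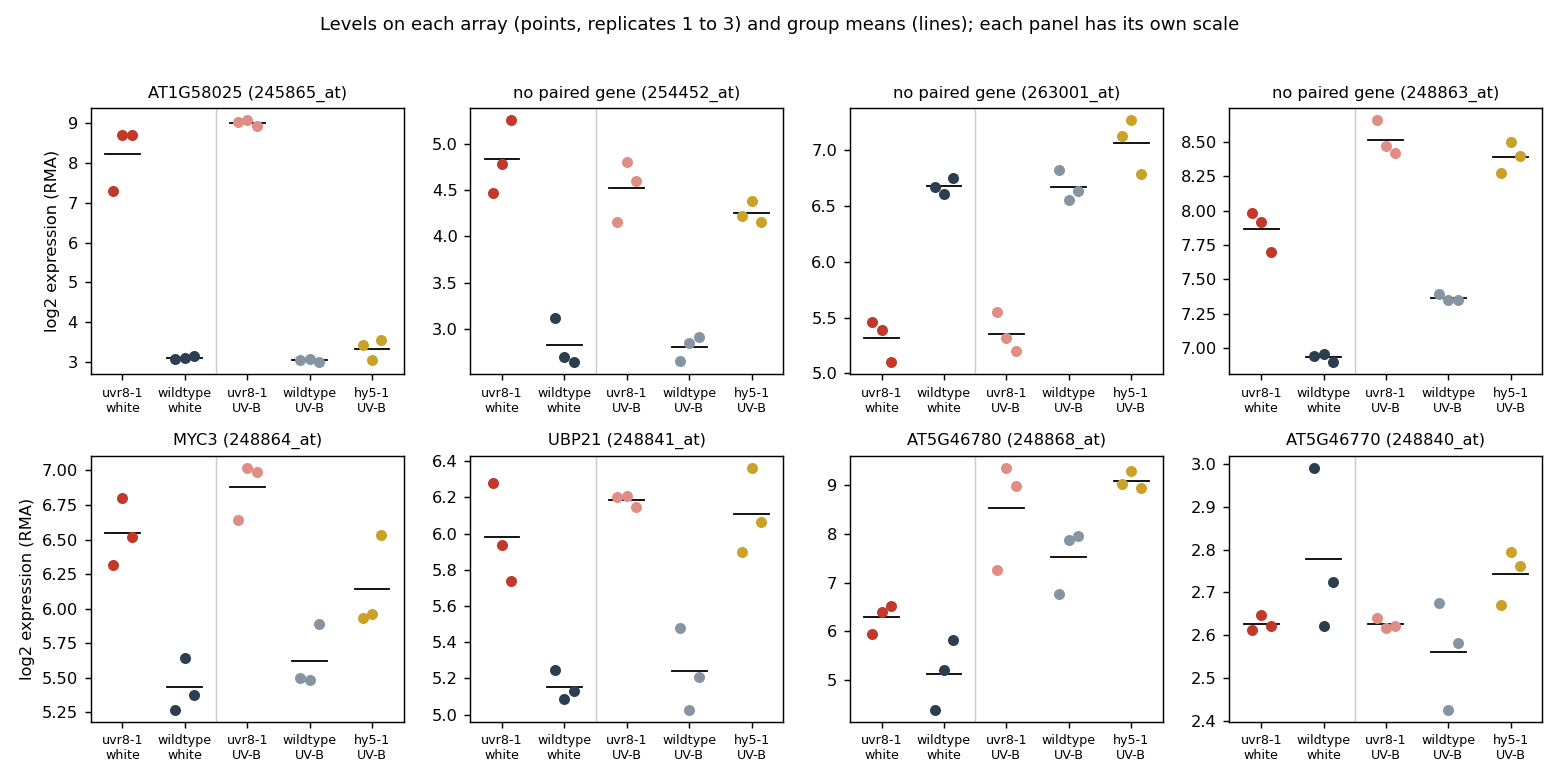
RMA expression (log2) on each array for the 4 called probe sets (top row) and for MYC3, UBP21, AT5G46780 and AT5G46770 (bottom row); points are arrays, lines are means of 3, and the scale differs between panels. AT1G58025 stands above 7 on every uvr8-1 array and below 4 on all others, 263001_at is lowest in uvr8-1 in both lights, and AT5G46770 stays between 2.43 and 2.99 in all groups.

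**Figure D3:**
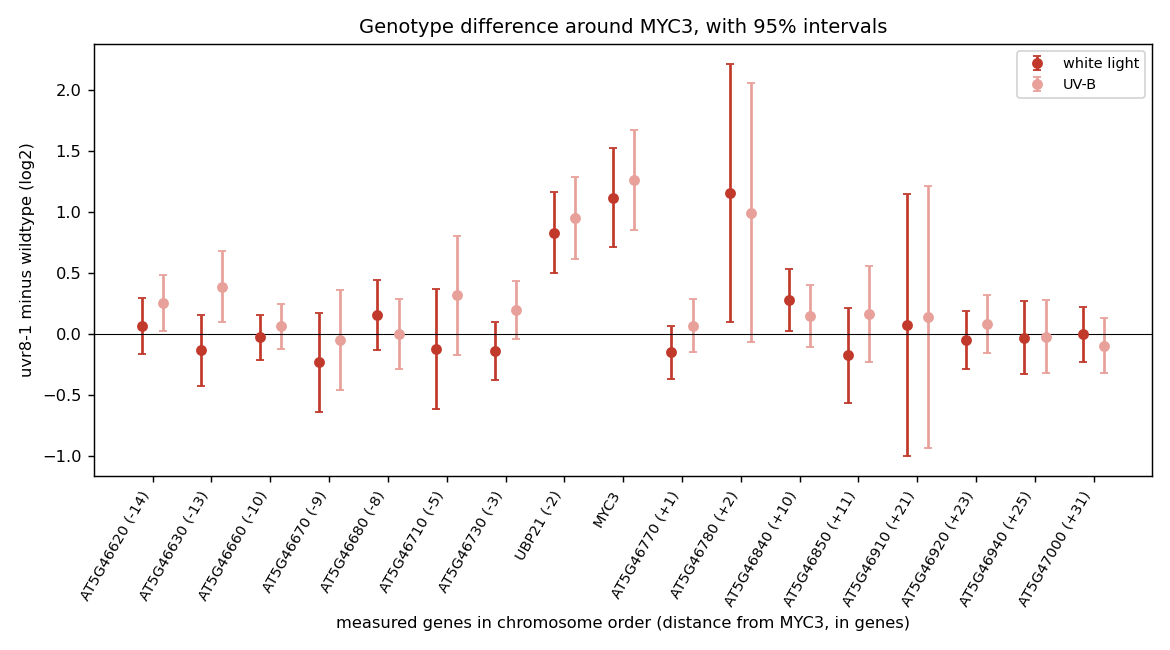
Difference between uvr8-1 and wildtype (log2, points, with 95% intervals) in white light and under UV-B for MYC3 and its 8 nearest measured genes to either side, in chromosome order, with the distance from MYC3 in genes in brackets. UBP21, MYC3 and AT5G46780 lie between 0.83 and 1.26 in both lights, and AT5G46770 between the last 2 lies near 0.

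The other genes with the smallest p-values in white light were 7 with higher and 10 with lower values in uvr8-1, all at an adjusted p of 1 (limma). The 7 differed by 0.33 to 0.45 and the 10 by -0.65 to -0.35. AT3G13175 read 4.52, 4.50 and 4.55 in uvr8-1, against 4.11, 4.15 and 4.01 in wildtype (0.43 ± 0.11). AT1G04800 read 6.17, 6.17 and 6.29 in uvr8-1, against 6.79, 6.94 and 6.80 in wildtype (-0.63 ± 0.18). Both sets of arrays were tight and apart, and under UV-B the differences were 0.25 (adjusted p = 0.346) and -0.20 (adjusted p = 0.808). The rest of the higher ones were AT1G62870, AT2G04540, AT1G02810, AT2G17990, AT2G24440 and AT2G33735. The rest of the lower ones were AT2G01130, AT3G16660, AT4G30460, AT5G08440, AT1G08220, AT1G11700, AT1G76630, AT1G62510 and AT3G25680. Counting MYC3 and UBP21 with them, 18 of these 19 genes had arrays that did not overlap, which over all probe sets held for 3.68% in the higher and 2.42% in the lower direction. They were picked for small p-values, so the count of 18 describes that choice. Under UV-B 13 of the 19 had the same sign, and 2 were called, MYC3 and UBP21, beside 2.41% of all probe sets. The share of all genes with the same sign is not given here, so nothing is read from the 13. Over all 22746 probe sets the differences in the 2 lights had a Pearson correlation of 0.07.

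Of the 12 probe sets at 2-fold or more, the 7 whose arrays overlapped had differences between -1.15 and 1.06 with standard errors of 0.36 to 0.94. They moved widely within each genotype, but for each of the 7 the differences by equal replicate number shared a sign. Probe set 255662_at differed by -1.22, -1.07 and -1.16 by replicate number, and was called in the replicate-block fit of the 6 white light arrays. The 7 were picked for size, which favours a shared sign. AT5G46030 read 3.52, 5.63 and 4.09 in uvr8-1, against 4.07, 6.67 and 5.60 in wildtype. By replicate number it differed by -0.55, -1.04 and -1.51. That gene was named after its values were seen, as the lowest difference of any gene with a probe set of its own (-1.03 ± 0.94).

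The probe sets that were lower in uvr8-1 under UV-B were next followed in white light. The 453 probe sets called lower in uvr8-1 under UV-B had a median difference of -1.17 there and of 0.004 in white light, with quartiles of -0.105 and 0.087. The median of all probe sets in white light was 0.006. Of the 453, 1 was called lower in white light, the 263001_at described above, and for 451 the white light interval excluded the size of the UV-B difference. The white light difference was under 0.5 times the UV-B size for 448 of them. Over all 22746 probe sets, the interval excluded the UV-B size for 3793, and 9486 were under 0.5 times it. The test of the difference between the lights was called for 188 of the 453, against 195 of all probe sets (0.857%). The set was chosen on the UV-B arrays, which enter that test and give the UV-B sizes. The counts of 451, 448 and 188 thus describe the choice in part. For the 88 probe sets at least 4-fold lower under UV-B, the white light median was -0.059. None was called in white light, where 0.0176% of all probe sets were, so nothing is read from this. Their medians by pair of equal replicate number were 0.075, 0.031 and -0.189, which do not share a sign.

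Genes of flavonoid synthesis, which makes UV-absorbing pigments, were followed in both lights. Of 23 listed genes 9 were measured, and 0 were called in white light, where 1 of all 13355 genes was. Under UV-B 8 of the 9 were called lower in uvr8-1, beside 1.67% of all genes. Their median difference came to 0.02 in white light (0.01 over all genes) and to -1.86 under UV-B (0.02 over all genes). UGT78D2, a flavonol glucosyltransferase, read 6.40, 6.20 and 6.23 in uvr8-1 in white light, against 6.35, 6.10 and 5.97 in wildtype. Under UV-B it read 5.66, 5.99 and 5.81 in uvr8-1, against 8.63, 9.72 and 8.96 in wildtype. The ranges overlapped in white light (0.13, 95% interval -0.36 to 0.63) and stood well apart under UV-B (-3.29 ± 0.23).

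DFR, a reductase of anthocyanin synthesis, read 4.99, 5.49 and 4.29 in uvr8-1 in white light, against 4.72, 5.33 and 4.07 in wildtype. In each replicate number the 2 genotypes lay close (uvr8-1 minus wildtype 0.27, 0.16 and 0.22), and replicate 2 was the highest in both. CHIL, which aids chalcone synthesis, read 5.18, 5.27 and 4.53 in uvr8-1, against 4.98, 4.92 and 4.73 in wildtype. AT1G06000, a flavonol rhamnosyltransferase, read 3.84, 4.62 and 4.43 in uvr8-1, against 4.11, 4.55 and 4.07 in wildtype. The white light differences of these 3 genes were 0.22 ± 0.42, 0.11 ± 0.33 and 0.05 ± 0.40 (each adjusted p = 1), and the UV-B differences of the same genes lay between -3.12 and -3.02. The intervals in white light ran from -0.68 to 1.12 for DFR, from -0.60 to 0.83 for CHIL and from -0.82 to 0.92 for AT1G06000. They exclude the UV-B size but not a change of about 1.5-fold, and they come from the fit without replicate pairing. Of the other measured members, UGT78D1, UGT78D3, AT4G14090, UF3GT and AT5MAT lay between -0.26 and 0.02 in white light. UGT78D3 and AT5MAT were dim in both genotypes in white light, and UGT78D3 was the member not called under UV-B.

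UGT84A1, a glucosyltransferase that acts on hydroxycinnamates, read 3.40, 3.33 and 3.38 in uvr8-1 in white light, against 3.59, 3.33 and 3.29 in wildtype. These are values near background in both genotypes, so a lower level in uvr8-1 had little room to show. Under UV-B it read 3.44, 3.63 and 3.44 in uvr8-1, against 7.05, 8.18 and 6.87 in wildtype. AT5G62210, which lay above the dim range in white light, read 4.51, 4.40 and 4.14 in uvr8-1 and 4.01, 4.73 and 3.96 in wildtype in white light, with a difference of 0.11 ± 0.30 there and of -4.25 ± 0.30 under UV-B. In the phenylpropanoid and sinapate list, 7 of 21 genes were measured, with a white light median of -0.04 and 0 called, beside 1 of all 13355 genes. UGT72E1, a monolignol glucosyltransferase, was higher in uvr8-1 under UV-B (1.25 ± 0.19, adjusted p = 0.0019) and differed by -0.16 ± 0.19 in white light.

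The light-signalling list had 3 measured genes of 28, HYH and the cryptochrome inhibitors AT3G52740 (BIC1) and AT3G44450 (BIC2). HYH read 4.15, 3.14 and 3.08 in uvr8-1 in white light, against 3.53, 2.82 and 4.36 in wildtype. The arrays overlapped and spread over more than a unit in each genotype, and the difference of -0.11 had an interval from -1.08 to 0.85. Both means, 3.46 in uvr8-1 and 3.57 in wildtype, were in the dim range, so a lower level had little room to show. Under UV-B HYH read 4.48, 6.10 and 5.81 in uvr8-1, against 7.58, 8.43 and 8.15 in wildtype (-2.59 ± 0.45, adjusted p = 0.00539). The test of the difference between the lights gave 2.47 (adjusted p = 0.134) and was not called for HYH.

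AT3G52740 read 3.28, 3.42 and 3.61 in uvr8-1 in white light, against 3.32, 3.48 and 3.83 in wildtype, near background in both. AT3G44450 read 4.56, 2.84 and 4.33 in uvr8-1, against 4.43, 3.86 and 5.33 in wildtype. Its difference of -0.63 ± 0.46 was the lowest of any list member outside the chloroplast genome, and the arrays overlapped. Under UV-B both inhibitors were lower in uvr8-1, with differences of -3.52 ± 0.31 and -2.92 ± 0.46. For AT3G44450 the difference between the lights was not called (adjusted p = 0.21).

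The auxin-conjugating enzymes GH3.3 and WES1 were higher in uvr8-1 under UV-B. In white light GH3.3 read 5.30, 5.57 and 5.56 in uvr8-1, against 5.18, 5.24 and 5.23 in wildtype. The groups did not overlap, but the difference of 0.26 ± 0.21 had an adjusted p of 1, and the UV-B difference was 2.07 ± 0.21. For WES1 the difference was 0.22 ± 0.24 with no UV-B and 1.14 ± 0.24 with it. Over the 96 probe sets called higher in uvr8-1 under UV-B, the white light median was 0.066, beside 0.006 over all probe sets, and 3 were called higher in white light, the 3 described above. Of the 96, 31 had a negative white light difference, and the medians by replicate pair were 0.101, 0.058 and 0.050. White light arrays did not overlap in the higher direction for 16 of them (16.7%), beside 3.68% of all probe sets. For the 15 at least 2-fold higher under UV-B, the white light median was 0.217, with pair medians of 0.112, 0.215 and 0.314, and 6 did not overlap in the higher direction. The 15 include the 3 called probe sets, MYC3 and others of small white light difference, and no test was made of either set.

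**Figure D4:**
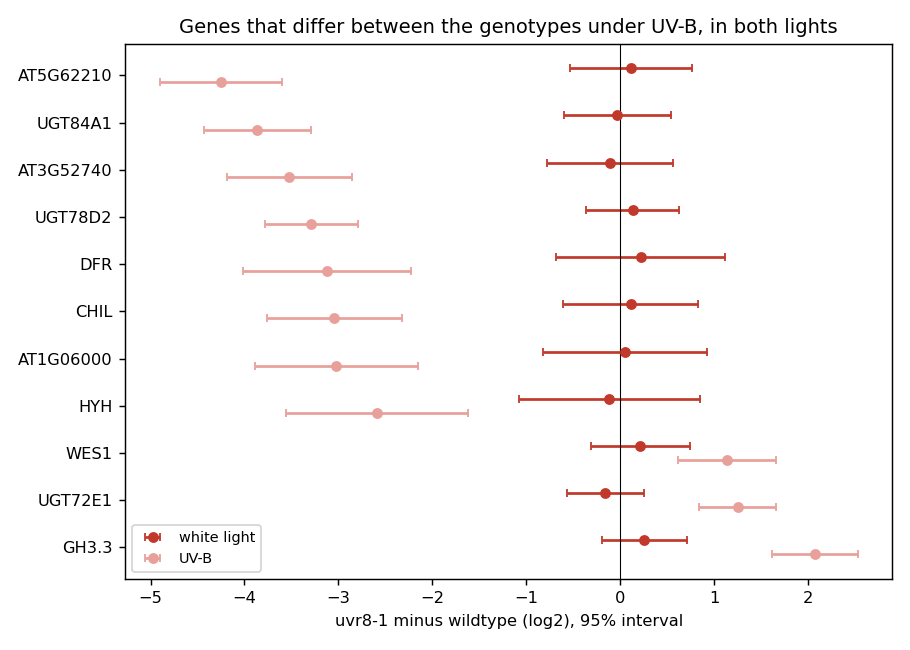
Difference between uvr8-1 and wildtype (log2, points, with 95% intervals) in white light and under UV-B for 11 genes that are called in uvr8-1 under UV-B. All white light intervals include 0, whereas the UV-B differences run from -4.25 for AT5G62210 to 2.07 for GH3.3.

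One gene of the 453 was added after its values were seen, for its low white light value. MSRB6, a methionine sulfoxide reductase, lay between 5.23 and 6.02 in uvr8-1 in white light, against 6.12 to 7.09 in wildtype. The arrays did not overlap, and the difference of -0.87 ± 0.32 had an unadjusted p of 0.0171 and an adjusted p of 1. Under UV-B MSRB6 differed by -2.33 ± 0.32. In the set, 15 probe sets (3.31%) had arrays that did not overlap in the lower direction, beside 2.42% of all probe sets, and 17 (3.75%) in the higher direction, beside 3.68%.

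The remaining lists and families held no called gene in white light, and at 1 call among 13355 genes nothing is read from this. For photosynthesis genes of the nucleus the 6 measured of 35 had a median of 0.00 and lay between -0.09 and 0.01. RCA, which activates Rubisco, averaged 12.47 in uvr8-1 and 12.46 in wildtype, with an interval from -0.17 to 0.19. LHCB4.1, a light-harvesting protein, averaged 12.34 in uvr8-1 and 12.33 in wildtype. In chlorophyll synthesis PORB, a protochlorophyllide reductase, differed by 0.11 (95% interval -0.26 to 0.48), and the list's 3 measured genes had a median of 0.06.

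Among the hormone lists, the medians lay between -0.06 (ethylene and cytokinin, 2 genes) and 0.15 (auxin, 6 genes). The auxin-response repressor IAA29 differed by 0.33 (95% interval -0.42 to 1.09), and the gibberellin receptor GID1A by 0.00 (-0.79 to 0.79). The cold-regulated gene COR15A differed by 0.12, with an interval from -1.15 to 1.39 that admits a 2-fold change either way. Apart from MYC3, the 4 measured genes of the jasmonate list lay between -0.05 and 0.06. They include MYC4, the close relative of MYC3 (0.03, 95% interval -0.27 to 0.32), and the defensin PDF1.2 (0.06), and all 4 were dim in both genotypes.

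The clock gene GI differed by 0.04, the pathogen-response factors WRKY6 and WRKY53 by -0.30 and 0.31, and the zinc-finger factor STZ by 0.33 with an interval from -1.28 to 1.95. For UV protection and DNA repair 2 genes of 14 were measured, the translesion polymerase POLH (0.11) and the DNA ligase ATLIG4 (0.20). AOP3 of glucosinolate side-chain synthesis differed by -0.30 and the heat shock gene ATHSP22.0 by -0.08. The 4 measured reference genes lay between -0.12 and 0.23, with a median of 0.15. Of the families, the 47 UDP-glycosyltransferases had a median of 0.01 and the 14 glutathione transferases of -0.05. The 26 genes with a symbol of CYP and a number, gathered for the cytochromes P450, had a median of 0.00. They take in AT3G44600 (CYP71, 0.35, the highest) and AT1G53720 (CYP59, 0.07), which need not be cytochromes P450. Expansins, xyloglucan endotransglucosylases, WRKY factors, histones, calmodulin-like proteins, U-box proteins and bHLH factors (5 to 18 genes each) had medians between -0.06 and 0.19. The 7 tubulins had a median of -0.27, but their pair medians were -0.73, -0.06 and 0.26 and so changed sign between replicates.

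Of the families with over 20 measured genes, those of the chloroplast genome had the median farthest from 0. Of the 69 measured, 57 had a lower mean in uvr8-1, with a median of -0.25, and 0 were called. The medians of the 3 replicate pairs were -0.39, -0.18 and -0.12. The gene psbD, for a reaction-centre protein of photosystem II, read 7.33, 6.84 and 8.87 in uvr8-1, against 7.71, 8.41 and 9.38 in wildtype. The large subunit of Rubisco, rbcL, read 7.62, 7.48 and 8.58 in uvr8-1, against 7.75, 8.04 and 8.68 in wildtype. The arrays of both genes overlapped between the genotypes, and the spread within a genotype was larger than the gap. By replicate pair the differences were -0.37, -1.56 and -0.51 for psbD and -0.12, -0.56 and -0.10 for rbcL. Under UV-B the family's median was 0.11, of the opposite sign. Only 23 of the 69 intervals lay within a 2-fold change, against 95.6% of all probe sets. The evenness index was also higher in uvr8-1 in white light, and with it as a covariate the family's median turned to 0.06, with 20 of 69 lower. The parts of index and genotype in this median cannot be told apart. Without 1 array at a time the median ran from -0.56, without replicate 3 of uvr8-1, to -0.06, without replicate 3 of wildtype.

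**Figure D5:**
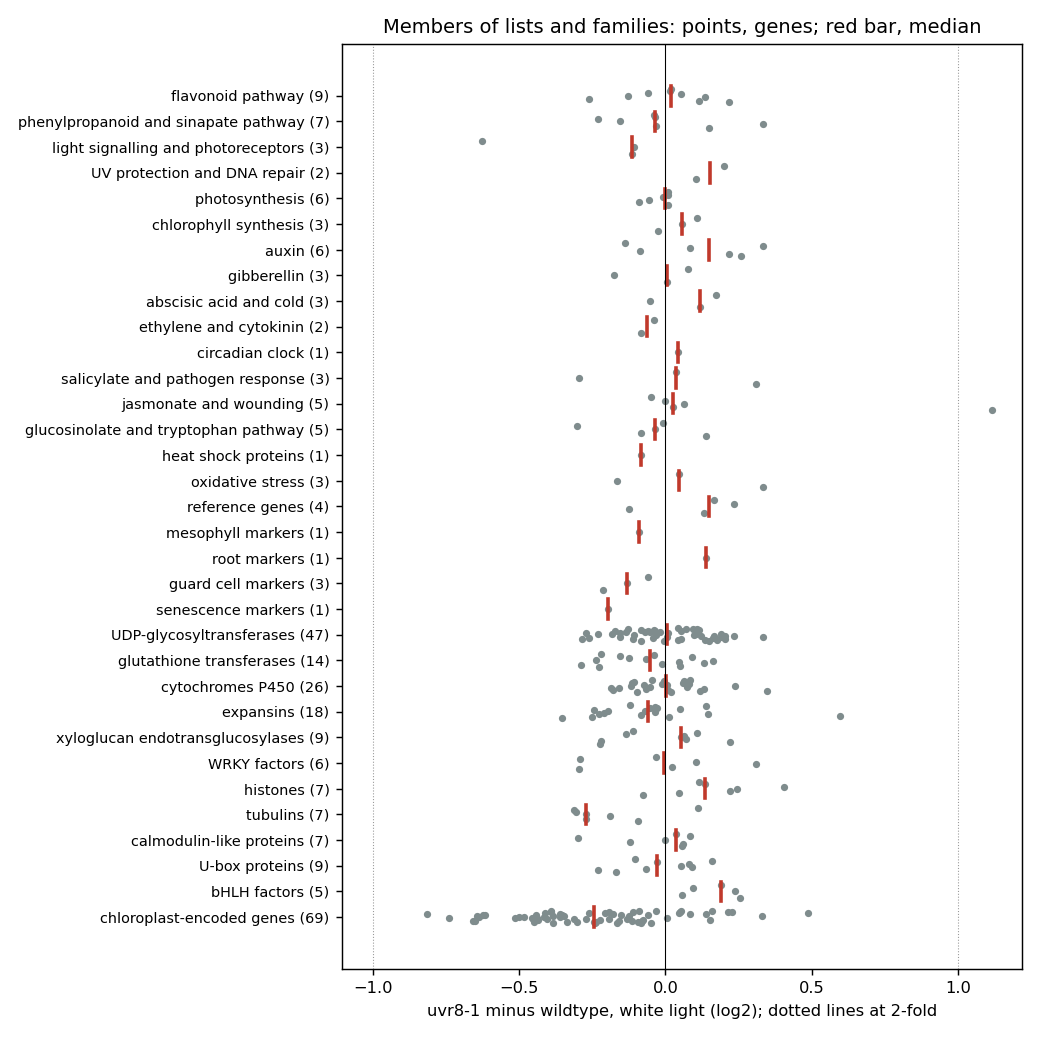
White light difference between uvr8-1 and wildtype (log2) for each measured member (points) of the gene lists and families, with the number of measured genes in brackets, red bars at the medians and dotted lines at 2-fold. MYC3 in the jasmonate list is the single point past 2-fold, and the chloroplast-encoded genes are shifted to a median of -0.25.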

How the data were processed

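The deposited series table holds log2 expression values that the authors made with RMA, per the submitters' processing notes. Nothing given here names the RMA version, its background step or the arrays that were run together. No further normalisation or filter was applied. Control probe sets (64) were left out, and 22746 were tested. The platform annotation paired 13513 of these with 1 gene, 503 with several and 8730 with none. The TAIR10.1 gene table of RefSeq, used for symbols and gene order only, matched 13436 of the 13513. Coordinates are left out, since the arrays' build is not stated.

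Groups followed the sample labels. All 15 arrays entered 1 limma 3.58.1 model in R 4.3.3, with 5 group means (10 residual and 3.09 prior degrees of freedom). Tests were 2-sided, with Benjamini-Hochberg adjustment over the 22746 probe sets. The number of arrays, 3 per group, limits the precision. The members, gene lists and tests were chosen with earlier results of these data known. Where a gene had several single-gene probe sets, the brightest on average stood for it. Named genes were those called, filled up to 10 per direction by smallest p, up to 4 members per list and 13 genes by name. Equally numbered uvr8-1 and wildtype white light arrays deviated together from their group means (correlations 0.64, 0.66 and 0.48), so the numbers appear to pair the samples. The main fit left this pairing out. Its median standard error in white light was 0.149, against 0.133 with a replicate block. Alternatives were a replicate block, fewer arrays, an intensity trend, a filter on dim probe sets, median centring, quantile normalisation, the 3' minus 5' index, array weights and leaving out each white light array. The fit was tested on simulated data. Tables and plots used Python 3.11.15, numpy 2.4.6, pandas 2.3.3, scipy 1.17.1 and matplotlib 3.10.9.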

Additional observations from a re-analysis of the deposited data

Results flagged for a closer look

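For 9 of the genes named above, the difference between uvr8-1 and wildtype was not the same in the 2 lights by the test of that difference itself (limma, white light minus UV-B on the log2 scale). UGT78D2 differed between the lights by 3.42 ± 0.32 (adjusted p = 0.000108), DFR by 3.34 ± 0.59 (adjusted p = 0.0144), CHIL by 3.16 ± 0.47 (adjusted p = 0.00419) and AT1G06000 by 3.07 ± 0.57 (adjusted p = 0.0206). These are flavonoid genes whose deficit in uvr8-1 appeared under UV-B. UGT84A1 differed by 3.83 ± 0.37 and AT5G62210 by 4.37 ± 0.42 (adjusted p = 0.000132 for both), and the cryptochrome inhibitor gene AT3G52740 by 3.42 ± 0.44 (adjusted p = 0.00123). With the opposite sign, UGT72E1 differed by -1.41 ± 0.27 (adjusted p = 0.0238) and GH3.3 by -1.81 ± 0.30 (adjusted p = 0.00853). Most of these genes were named because they differ under UV-B, and the test includes those UV-B arrays. UGT84A1 and AT3G52740 were near background in both genotypes in white light, so a lower level had little room to show there.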

How the results depend on the processing

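The 4 called probe sets were the same without any 1 of the 6 white light arrays (3 higher and 1 lower each time) and with a replicate block in the 15-array fit, which changed no call in white light. The 6 white light arrays alone called 0 higher and 0 lower (410 at an unadjusted p under 0.05), with adjusted p of 0.0578 for AT1G58025, 0.305 for 254452_at and 248863_at, and 0.122 for 263001_at; that fit has fewer arrays to estimate the spread. With a replicate block those 6 arrays called 2 higher and 2 lower (1533 unadjusted): AT1G58025, MYC3, 263001_at and 255662_at, a probe set with no single paired gene (-1.15). The 3' minus 5' index as a covariate left 1 higher (AT1G58025) and 1 lower, and thus 2 called in both lights; the call of 254452_at (adjusted p = 0.0662) and of 248863_at (adjusted p = 0.0848) was lost, with differences of 2.0 and 0.885. Over the 16 alternatives 254452_at ran from 1.80 to 2.28 and 248863_at from 0.87 to 1.02. MYC3 was called with quantile normalisation (adjusted p = 0.0435), array weights (0.0264) and the 6-array block (0.0343); over its 16 alternatives the adjusted p ran from 0.0264 to 1. Probe sets called higher under UV-B numbered 159 with the block, 61 with an intensity trend and 202 with array weights. Called differences between the lights numbered 129 with the index and 334 with array weights. Genes near 0 changed sign: CHIL to -0.056 and AT5G62210 to -0.12 with the index, and UGT84A1 to 0.022 with array weights. HYH moved to -0.56 and AT3G52740 to -0.52 with the index, and HYH to -0.51 with array weights. Without 1 array each, HYH ran from -0.49 to 0.28, DFR from -0.10 to 0.54, CHIL from -0.024 to 0.34, AT1G06000 from -0.11 to 0.28, UGT84A1 from -0.089 to 0.061, UGT72E1 from -0.34 to 0.013, AT5G62210 from -0.022 to 0.36 and AT3G52740 from -0.22 to 0.037. The cause of these shifts was not tested.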
